A study of Mus musculus with 12 samples.

Results

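The genes described here are the metalloproteinases of the matrix metalloproteinase (MMP), ADAM and ADAMTS families, the ADAMTS-like proteins and the tissue inhibitors of metalloproteinases (TIMPs). They were chosen by gene symbol, with earlier results of these data known, which gave 56 members among the 15687 genes listed. They comprised 18 *Mmp*, 16 *Adam*, 14 *Adamts*, 5 *Adamtsl* and 3 *Timp* genes, and *Timp4* was not analysed here. RNA was measured in subcutaneous tumors that mTC11 lung cancer cells of the mouse formed in syngeneic C57BL6/J males. The 6 CTL tumors came from cells with a control short hairpin RNA (shRNA, labelled shControl), and the 6 *Filip1l*-knockdown (KD) tumors from cells with an shRNA against *Filip1l*. All 12 tumors started from cells mixed with growth factor-reduced Matrigel, in hosts that were 8 weeks old, and were taken on day 24. The shRNAs were delivered by lentivirus and the cells were puromycin-selected mixed clones, so each tumor holds a mixture of transduced tumor cells and unmodified host cells. The labels do not say which of the study's *Filip1l* shRNA constructs these tumors carry.

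MMPs are zinc-dependent enzymes, secreted or anchored at the cell surface, that cut collagens, elastin and other parts of the extracellular matrix. ADAMs are membrane proteins, several of which release the extracellular parts of growth factors, cytokines and receptors from the cell surface, while others have lost the catalytic site and act in adhesion. ADAMTS enzymes are secreted and process procollagens and proteoglycans, ADAMTS-like proteins share their ancillary domains without the protease, and TIMPs bind and block the active enzymes. In carcinomas much of this network is made by fibroblasts and infiltrating leukocytes as well as by the tumor cells.

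Reads on listed genes ranged from 17834745 (CTL replicate 5) to 32419578 per tumor, and 3 members had 1 tumor each at a floor of 3 reads: *Adam5* in KD replicate 2, and *Adam4* and *Adamts17* in CTL replicate 5. *Filip1l* itself averaged 2311 ± 211 normalized counts in the CTL group and 1924 ± 165 in the knockdown group (mean ± SD, n = 6 per group, as for all such values). Its log2 fold change was -0.26 (SE 0.07, adjusted p = 0.00998, limma), and all 6 knockdown tumors lay below the CTL median. Of 8 epithelial markers all were detected, and 6 were called higher in knockdown tumors (75%, against 6.20% of all genes). The 6 lung epithelial markers analysed were uneven. *Sftpd* (means of 1737 and 2068 normalized counts) and *Napsa* (244 and 461) were well detected, *Foxj1* was called lower (107 and 29.9), *Sftpb* was called higher (29.7 and 304), *Nkx2-1* was low (17.2 and 39.4), and *Sftpc* was at or under the floor in 5 CTL and 2 knockdown tumors. KD replicate 1 stood apart from its group. It was the highest knockdown tumor for 33 of the 56 members (58.9%) and for 25.6% of all genes. Its summed level of 10 fibroblast markers was 265183 normalized counts, against 81127 to 173987 in the other knockdown tumors and 172163 to 287927 in CTL tumors. Its summed level of 10 macrophage markers was 25924, the highest of the 12 tumors, and its epithelial sum of 217523 was the lowest of the knockdown group. Several results are therefore given with and without this tumor. In bulk tumors, fewer cells of a type and less RNA per cell cannot be told apart.

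A run of 6 MMP genes, *Mmp13*, *Mmp12*, *Mmp3*, *Mmp10*, *Mmp8* and *Mmp7*, lies within a single stretch of the plus strand of chromosome 9, and they did not move together, as described with their values. Their start regions are shown because AP-1, the Fos and Jun dimer known to drive several of these genes, binds close to the start site, and because *Mmp7* is a known target of TCF factors. Each line gives 100 bases before and 20 bases from the start site onward, 5′ to 3′ on the plus strand, from RefSeq on GRCm38.p6. Capitals mark matches to the AP-1 letters TGAGTCA, the TATA letters TATAAA, or the TCF letters CTTTGAT or CTTTGAA, on either strand.
Mmp13 (chr9:7272414-7272533): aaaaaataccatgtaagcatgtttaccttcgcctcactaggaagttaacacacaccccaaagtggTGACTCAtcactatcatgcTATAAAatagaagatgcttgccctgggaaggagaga
Mmp12, first start (chr9:7344297-7344416): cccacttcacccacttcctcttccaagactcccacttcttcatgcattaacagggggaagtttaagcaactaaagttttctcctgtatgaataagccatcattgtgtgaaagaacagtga
Mmp12, second start (chr9:7347274-7347393): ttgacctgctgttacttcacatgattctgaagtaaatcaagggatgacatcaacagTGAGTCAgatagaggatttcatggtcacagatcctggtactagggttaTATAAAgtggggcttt
Mmp3 (chr9:7445722-7445841): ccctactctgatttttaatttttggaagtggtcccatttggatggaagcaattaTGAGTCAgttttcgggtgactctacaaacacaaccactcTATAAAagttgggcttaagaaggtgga
Mmp10 (chr9:7502242-7502361): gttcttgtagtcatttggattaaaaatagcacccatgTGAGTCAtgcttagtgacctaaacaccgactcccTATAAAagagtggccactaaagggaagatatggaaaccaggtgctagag
Mmp8 (chr9:7558329-7558448): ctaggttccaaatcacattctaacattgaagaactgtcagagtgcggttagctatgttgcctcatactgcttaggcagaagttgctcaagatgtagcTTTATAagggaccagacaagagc
Mmp7 (chr9:7691990-7692109): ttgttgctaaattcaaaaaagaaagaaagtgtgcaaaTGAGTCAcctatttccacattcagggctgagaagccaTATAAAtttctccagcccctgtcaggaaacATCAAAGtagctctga
The AP-1 letters stood 35 bases before the start of *Mmp13*, 46 before *Mmp3*, and 63 before *Mmp10* and *Mmp7*, counted from the first letter of the match. For *Mmp12* they stood 44 bases before the second start, which lies 2993 bases inside the gene, and were not found at the first. *Mmp1b*, whose exons overlap those of *Mmp12* on the other strand, was not analysed here. They were not found in the *Mmp8* window. In windows from 250 bases before to 50 after the start, TGAGTCA was held by 5 of 16 *Mmp* windows, by 6 of 39 windows of the 34 members with an entry, and by 1709 of all 32851 windows (5.20%). The 6th member window was that of *Adam19*. TCF letters were in 2 of 39 member windows, which are the overlapping windows of the 2 *Mmp7* starts and share 1 match, against 8.65% of all windows, and TATAAA in 8 of 39, against 13.6%. These are descriptions of letters in a window.

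The question of the design was which transcripts differ between tumors with and without *Filip1l* knockdown. A gene was called when its adjusted p (limma, Benjamini-Hochberg over all genes) was under 0.05 and its log2 fold change on the log2(value + 1) scale exceeded 1 in size. Of the 56 members 11 were called (19.6%), against 10.2% of all genes. The 8 called lower were *Adamtsl3*, *Mmp11*, *Mmp17*, *Adam12*, *Timp3*, *Adam5*, *Adamts9* and *Adamts12* (14.3% of members, against 3.97% of all genes). The 3 called higher were *Adamts15*, *Adam22* and *Mmp8* (5.36%, against 6.20%). By the adjusted p alone, 24 members passed (42.9%, against 41.9% of all genes), 8 higher and 16 lower, and 32 did not. The median log2 fold change was -0.12 over the members and 0.008 over all genes. CTL and knockdown tumors did not overlap for 13 members (23.2%, against 21.5% of all genes). For these 13 the exact two-sided permutation p was 0.00216, the smallest that the 924 arrangements of the labels allow. Groups that do not overlap always give this value, so it adds nothing to the separation. For the 3 called members whose groups overlapped it was 0.0108 (*Timp3*), 0.0173 (*Adamts12*) and 0.013 (*Mmp8*). Without KD replicate 1, 13 members were called (against 10.9% of all genes) and 32 passed by adjusted p alone, 10 higher and 22 lower (against 44.2% of all genes). All 24 that passed with every tumor were among those 32.

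**Figure D1:**
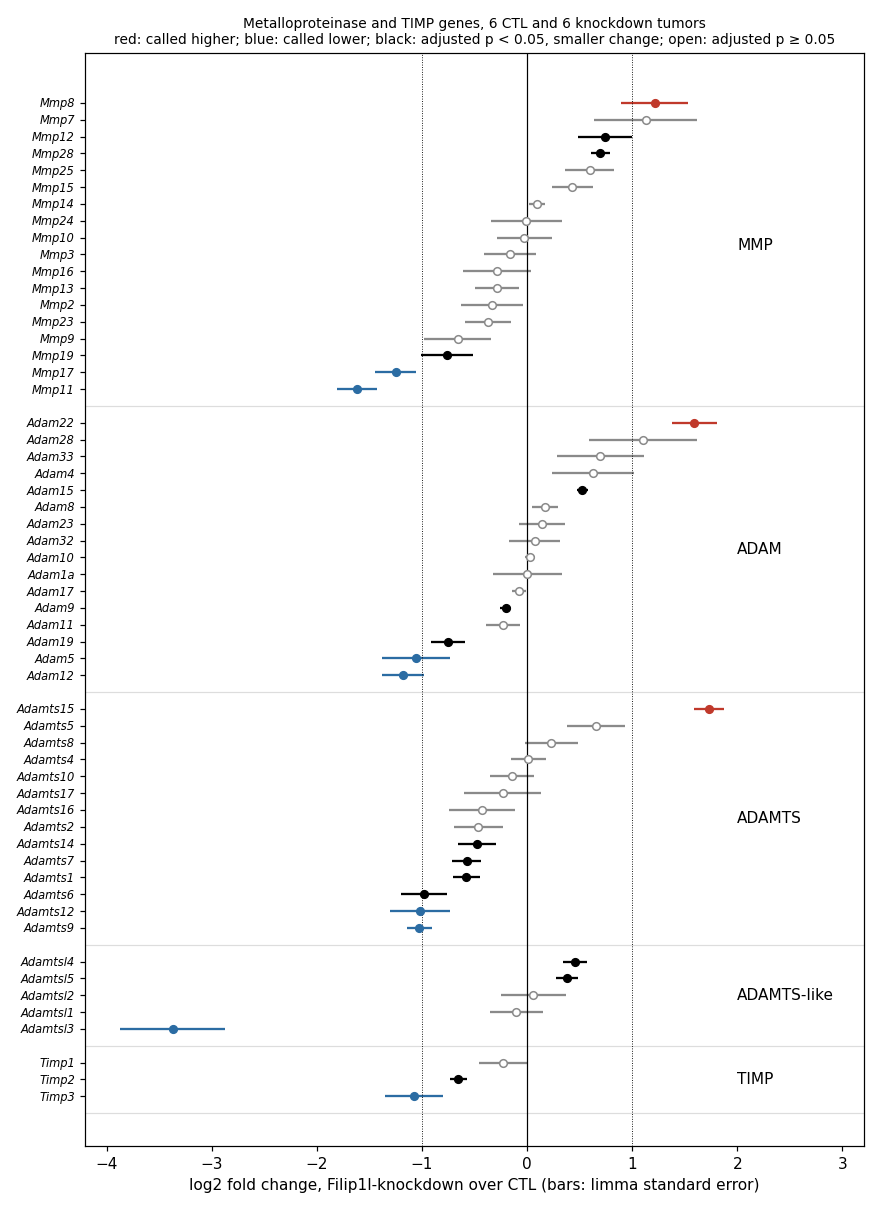
Log2 fold change of each of the 56 genes (x axis, knockdown over CTL, on the log2(value + 1) scale, bars showing the limma standard error), grouped by family and ordered within it. Blue points to the left of the dotted line at -1 are the 8 genes called lower, red points to the right of the line at 1 are the 3 called higher, and open points had an adjusted p of 0.05 or more.

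The TIMP genes were lower or not distinguishable, and none was higher. *Timp2*, which blocks most MMPs and also helps MMP14 activate pro-MMP2, had a lowest, median and highest value of 18262, 20028 and 21974 normalized counts in CTL tumors and 11577, 12268 and 16074 in knockdown tumors (chr11:118301069-118355740, ENSMUSG00000017466). Every knockdown tumor was below every CTL tumor (log2 fold change -0.65, SE 0.08, adjusted p = 1.87e-05). *Timp3*, which binds to the matrix and also inhibits ADAM17 and ADAMTS enzymes, had 3917, 6388 and 8718 in CTL tumors and 2071, 2910 and 7340 in knockdown tumors (chr10:86300372-86349506). The groups overlapped through KD replicate 1 alone: the other 5 knockdown tumors reached at most 3028. The log2 fold change was -1.08 (SE 0.27, adjusted p = 0.00576), and -1.33 (SE 0.18) without that tumor. The call for *Timp3* did not hold without CTL replicate 1 (-0.99), CTL replicate 2 (-0.995), KD replicate 5 (-0.96) or KD replicate 6 (-0.97), where the adjusted p stayed at or below 0.0154. Its exons overlap those of *Syn3* on the other strand over 21.3% of their length, and the library kit does not mark strand. *Timp1*, an inhibitor that is induced by many cytokines, had 1325, 1668 and 1994 in CTL tumors and 888, 1308 and 3092 in knockdown tumors (chrX:20870166-20874735). The groups overlapped and no difference was detected with all tumors (log2 fold change -0.23, SE 0.23, adjusted p = 0.463). Without KD replicate 1 it was -0.45 (SE 0.14, adjusted p = 0.0147).

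Levels of different genes were compared per kilobase of exon, with all annotated exons of a gene merged. This length (7237 bases for *Mmp12*) need not be that of the transcript expressed, so levels and sums depend on the annotation. The 3 TIMP genes summed to between 7053 and 8939 normalized counts per kb in CTL tumors and between 4235 and 8509 in knockdown tumors. The 18 MMP genes summed to 5425 to 6630 in CTL tumors and to 5466 to 9535 in knockdown tumors. The TIMP sum over the MMP sum lay between 1.16 and 1.42 in the 6 CTL tumors and between 0.775 and 0.908 in the 6 knockdown tumors, so the groups did not overlap. KD replicate 1 had a TIMP sum of 8509, within the CTL range, and an MMP sum of 9535, above every other tumor, and its ratio of 0.892 was within the range of its group. *Timp2* made up 63.1% to 70.4% of the TIMP sum in CTL tumors and 48.5% to 70.2% in knockdown tumors. The ratio is a description of transcripts per length and carries no test. *Mmp14*, 35.8% to 39.2% of the MMP sum in CTL tumors, lies on chromosome 14, whose genes had a median log2 fold change of 0.388. The ratio was not corrected for chromosome medians.

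**Figure D2:**
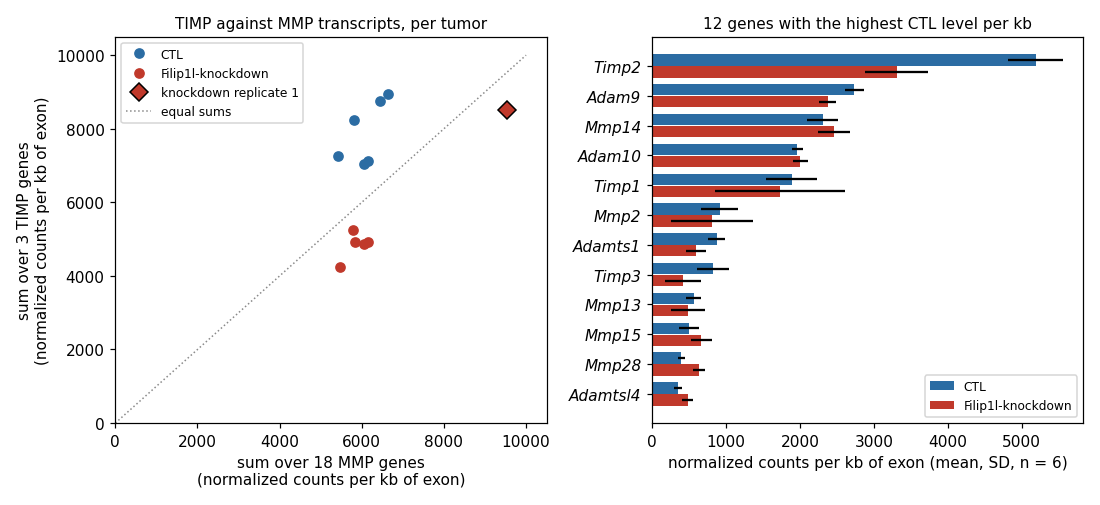
Left, the summed normalized counts per kb of the 3 TIMP genes (y axis) against those of the 18 MMP genes (x axis), 1 point per tumor. All 6 CTL tumors lie above the line of equal sums and all 6 knockdown tumors below it, KD replicate 1 far to the right. Right, mean and SD (n = 6) of the 12 genes with the highest CTL level, led by *Timp2* at 5190 per kb in CTL and 3309 per kb in knockdown tumors.

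Of the collagenases, which cut fibrillar collagen, *Mmp8* was called higher and *Mmp13* did not pass. *Mmp8*, the collagenase of neutrophils, averaged 21.4 ± 8.42 normalized counts in CTL tumors (14.1 to 34.9) and 51.7 ± 20.2 in knockdown tumors (24.5 to 75.6), a log2 fold change of 1.21 (SE 0.32, adjusted p = 0.00697). The ranges overlapped. With a pseudocount of 8 the change was 0.99, short of the threshold. Of 7 neutrophil markers analysed, 5 were called higher (71.4%, against 6.20% of all genes) and none lower. Among these 5 was *S100a9*, at 101 ± 18.3 and 375 ± 83.9. The summed neutrophil markers ranged from 562 to 1730 in CTL tumors and from 1352 to 1987 in knockdown tumors. *Ltf* had the highest mean of the list in both groups and so weighed most in this sum. It was not called (795 ± 449 and 666 ± 194, log2 fold change -0.09, adjusted p = 0.864). *Ngp* was at or under the floor in 4 CTL and 2 knockdown tumors, and *Mpo*, *Elane* and *Camp* were not analysed here. The part of these cells in the *Mmp8* result was not tested. *Mmp13* was 1496 ± 259 and 1294 ± 601 (log2 fold change -0.29, SE 0.21, adjusted p = 0.299). Without KD replicate 1, whose value was 2500, it was -0.50 (SE 0.12, adjusted p = 0.0044) and the groups no longer overlapped.

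The gelatinases, which degrade denatured and basement membrane collagen, did not pass with all tumors. *Mmp2*, a product mainly of fibroblasts, had a lowest, median and highest value of 2210, 2859 and 4162 in CTL tumors and 1576, 2064 and 6479 in knockdown tumors (chr8:92827291-92853420). The highest of all 12 values was that of KD replicate 1, and the next knockdown tumor had 2493. On the log2 scale the fold change was -0.33 (SE 0.30, adjusted p = 0.401) with all tumors and -0.62 (SE 0.18, adjusted p = 0.0114) without that one. With all tumors and the median of each chromosome removed it was -0.13 (adjusted p = 0.77). *Mmp9*, made by macrophages and neutrophils among others, had 656, 1086 and 1456 in CTL tumors and 334, 572 and 1828 in knockdown tumors (chr2:164940780-164955850). Here too the highest of all values was that of KD replicate 1. The fold change on the log2 scale was -0.66 (SE 0.32, adjusted p = 0.116), and -0.96 (SE 0.22, adjusted p = 0.00265) without that tumor.

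Of the stromelysins, of which *Mmp3* and *Mmp10* have a broad range of matrix substrates, only *Mmp11* passed. *Mmp11*, known from the fibroblasts around carcinomas, had 482, 586 and 743 in CTL tumors and 134, 177 and 349 in knockdown tumors (chr10:75923222-75936496, ENSMUSG00000000901). Every knockdown tumor was below every CTL tumor, and the highest knockdown value was again that of KD replicate 1. This made a log2 fold change of -1.62 (SE 0.19, adjusted p = 1.58e-05). *Mmp3* (log2 fold change -0.16, SE 0.25) and *Mmp10* (-0.03, SE 0.26) did not pass, and their sign turned when single tumors were left out.

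*Mmp7* and *Mmp12* are MMPs known from epithelium and from macrophages, respectively. *Mmp7*, matrilysin, had 13.3, 21.2 and 34.4 in CTL tumors and 14.0, 57.9 and 201 in knockdown tumors (chr9:7692090-7699585). Of the knockdown tumors, 4 lay above every CTL tumor, and KD replicates 3 and 6 lay within the CTL range, at 25.0 and 14.0. The log2 fold change of 1.13 (SE 0.49) had an adjusted p of 0.0804. It was called without KD replicate 6 (1.48, SE 0.42, adjusted p = 0.0139), and it was 0.73 (adjusted p = 0.146) without KD replicate 1. *Mmp12*, macrophage elastase, was 2190 ± 246 in CTL and 4133 ± 2766 in knockdown tumors, with every knockdown tumor above every CTL tumor. KD replicate 1 had 9741, and the others 2536 to 3456. The log2 fold change of 0.74 (SE 0.25, adjusted p = 0.03) was 0.46 (SE 0.09, adjusted p = 0.00102) without that tumor. Without CTL replicate 1, 5 or 6 the adjusted p of *Mmp12* was 0.059, 0.0505 and 0.0562, and in a fit without a variance trend it was 0.0506. The summed macrophage markers ranged from 16143 to 22608 in CTL and from 14182 to 25924 in knockdown tumors. Of these 10 markers 1 was called higher (10%, against 6.20% of all genes) and none lower. Their part in the *Mmp12* result was not tested.

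Along the chromosome 9 cluster the log2 fold changes were thus -0.29 for *Mmp13*, 0.74 for *Mmp12*, -0.16 for *Mmp3*, -0.03 for *Mmp10*, 1.21 for *Mmp8* and 1.13 for *Mmp7*. All genes lie between position 7272514 and position 7699585.

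**Figure D3:**
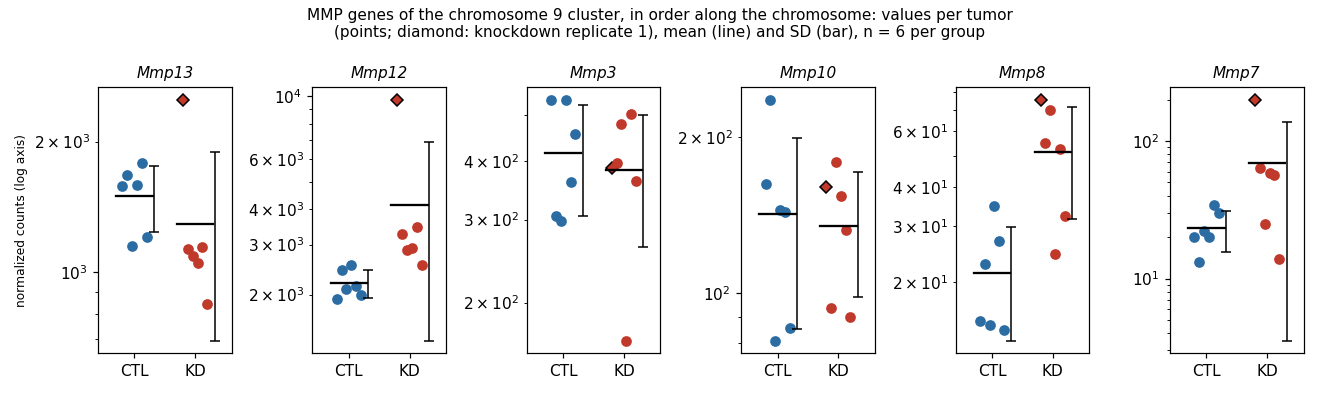
Normalized counts per tumor (y axis, logarithmic) of the 6 MMP genes of the chromosome 9 cluster in chromosomal order, with group mean (line) and SD (bar), n = 6 per group. *Mmp12* shows no overlap between groups, *Mmp8* and *Mmp7* are shifted upward with overlap, and KD replicate 1 (diamond) reaches 9741 for *Mmp12* and 201 for *Mmp7*.

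Of the 6 membrane-type MMPs, 1 passed by adjusted p (16.7%, against 41.9% of all genes). *Mmp17*, a glycosylphosphatidylinositol-anchored MMP, had 137, 154 and 193 in CTL tumors and 40.6, 65.4 and 93.8 in knockdown tumors (chr5:129584169-129611099). The groups did not overlap, and the log2 fold change was -1.25 (SE 0.19, adjusted p = 0.000149). *Mmp14*, the collagenase of the cell surface that activates pro-MMP2, had 11614, 13863 and 15428 in CTL tumors and 13422, 14390 and 16990 in knockdown tumors (chr14:54431612-54445364). No difference was detected (log2 fold change 0.09, SE 0.07, adjusted p = 0.35). Genes of chromosome 14 as a whole had a median log2 fold change of 0.388, and once chromosome medians were removed *Mmp14* was -0.29 (SE 0.07, adjusted p = 0.00682). *Mmp15*, *Mmp16*, *Mmp24* and *Mmp25* ranged from -0.28 to 0.60 and did not pass. *Mmp25*, an MMP of leukocytes, was the nearest (0.60, adjusted p = 0.0542), and it passed without CTL replicate 6 (0.0453), KD replicate 4 (0.0193) or KD replicate 5 (0.0255). *Mmp15*, on chromosome 8 (median -0.187), was 0.43 (adjusted p = 0.0969), and it passed without KD replicate 1 (0.56, adjusted p = 0.0196) or with chromosome medians removed (0.63, adjusted p = 0.0126). Of the other secreted MMPs, *Mmp28*, an epithelial MMP known as epilysin, rose by 0.70 (SE 0.09, adjusted p = 4.34e-05) from 1520 ± 189 to 2466 ± 310, with no overlap. *Mmp19* fell, with a log2 fold change of -0.76 (SE 0.25, adjusted p = 0.0229), from 409 ± 60.4 to 264 ± 147. The change was -0.998 (SE 0.15, adjusted p = 0.000114) without KD replicate 1, whose value of 548 was the highest of any tumor. The exons of *Mmp19* overlap *Tmem198b* on the other strand over 22.3% of their length. Its adjusted p was 0.0519 without CTL replicate 6, 0.0535 without KD replicate 5 and 0.0539 without KD replicate 6. *Mmp23* did not pass with all tumors (-0.37, SE 0.22) and was -0.54 (adjusted p = 0.0222) without KD replicate 1.

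Of the 9 ADAM genes with sheddase roles, 4 passed by adjusted p (44.4%, against 41.9% of all genes), 3 lower and 1 higher. *Adam12*, which is found in stromal cells and cuts IGF-binding proteins, had 738, 1026 and 1591 in CTL tumors and 338, 441 and 705 in knockdown tumors (chr7:133883199-134232146). Every knockdown tumor was below every CTL tumor, with a log2 fold change of -1.18 (SE 0.20, adjusted p = 0.000323). *Adam19*, which sheds neuregulin, was lower by a smaller amount, at 1013 ± 94.0 and 622 ± 209 (log2 fold change -0.75, SE 0.16, adjusted p = 0.00161). The change was -0.91 (SE 0.09, adjusted p = 3.65e-06) without KD replicate 1, whose value was 1031. *Adam9* was 11265 ± 530 and 9780 ± 481 without overlap (-0.20, SE 0.05, adjusted p = 0.00496). Its chromosome, 8, had a median of -0.187, and with chromosome medians removed *Adam9* was -0.01 (adjusted p = 0.938). *Adam15* was higher without overlap, at 1848 ± 115 and 2661 ± 115 (log2 fold change 0.53, SE 0.05, adjusted p = 3.09e-06). A share of 20.6% of its exon length overlaps a gene on the other strand.

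For the main growth factor sheddases no difference was detected. *Adam10*, which cuts Notch and E-cadherin, had 9213, 9720 and 10061 in CTL tumors and 9042, 9970 and 10441 in knockdown tumors (chr9:70678997-70780229). Its log2 fold change was 0.03 (SE 0.05, adjusted p = 0.664), and -0.01 when tumors were rescaled to the same total. *Adam17*, the TNF-alpha converting enzyme, had 2140, 2341 and 2692 in CTL tumors and 1996, 2223 and 2496 in knockdown tumors (chr12:21323509-21373632). Its log2 fold change was -0.07 (SE 0.07, adjusted p = 0.398). Groups overlapped for both. *Adam8*, *Adam28* and *Adam33* did not pass either. *Adam28* had a log2 fold change of 1.10 (SE 0.51, adjusted p = 0.101) with all tumors and was called without KD replicate 1 (1.52, SE 0.40, adjusted p = 0.00701). It lies on chromosome 14 like *Mmp14*, and with chromosome medians removed it was 0.72 (SE 0.51, adjusted p = 0.29). Among the 3 ADAMs without protease activity, *Adam22*, a receptor for LGI proteins at synapses, had 23.9, 33.4 and 56.4 in CTL tumors and 74.6, 109 and 142 in knockdown tumors (chr5:8072352-8368160). The groups did not overlap, and the log2 fold change was 1.59 (SE 0.21, adjusted p = 4.28e-05). *Adam11* and *Adam23* did not pass. Of the 4 genes known mainly from the reproductive tract, all with a mean under 50 normalized counts, *Adam5* was called lower, at 15.5 ± 4.13 (10.5 to 22.0) and 7.19 ± 2.80 (3.12 to 9.79), with a log2 fold change of -1.06 (SE 0.32, adjusted p = 0.0166). That call did not hold without CTL replicate 6 (-0.95), KD replicate 2 (-0.87) or KD replicate 5 (-0.99), with a pseudocount of 8 (-0.63) or with chromosome medians removed (-0.86). *Adam1a*, *Adam4* and *Adam32* did not pass, and *Adam1a* shares exon sequence on its own strand with *Mapkapk5*, which leaves its count uncertain.

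The ADAMTS proteases held members that moved in opposite directions. Of the 6 hyalectanases, which cut aggrecan and versican, *Adamts15* had 118, 171 and 232 in CTL tumors and 496, 569 and 671 in knockdown tumors (chr9:30899155-30922452, ENSMUSG00000033453). The lowest knockdown tumor lay above the highest CTL tumor, and the log2 fold change of 1.73 (SE 0.14, adjusted p = 6.80e-07) was the highest among the members. *Adamts8*, its neighbor 20109 bases away, was 27.7 ± 10.2 and 31.8 ± 7.07 (0.23, SE 0.26, adjusted p = 0.503). *Adamts9* had 734, 853 and 993 in CTL tumors and 350, 402 and 574 in knockdown tumors (chr6:92772699-92943492). The groups did not overlap, with a log2 fold change of -1.02 (SE 0.12, adjusted p = 1.42e-05). It fell short of a size of 1 without CTL replicate 3, CTL replicate 6, KD replicate 5 or KD replicate 6 (-0.996 to -0.97) and with chromosome medians removed (-0.999). *Adamts1*, the most abundant ADAMTS transcript per kb and an inhibitor of angiogenesis, fell from 4617 ± 614 to 3128 ± 719 (-0.58, SE 0.13, adjusted p = 0.0021). The change was -0.69 (SE 0.09, adjusted p = 2.84e-05) without KD replicate 1, whose value was 4531. *Adamts5*, the aggrecanase 53059 bases from *Adamts1*, was 167 ± 37.5 and 287 ± 160 (0.66, SE 0.28, adjusted p = 0.0734). It passed without KD replicate 5 (0.81, adjusted p = 0.0283) or KD replicate 6 (0.77, adjusted p = 0.0467). *Adamts4* did not pass.

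Both procollagen N-proteinases, which trim the amino end of fibrillar procollagens, had lower means in knockdown tumors. *Adamts14* was 158 ± 36.8 and 112 ± 20.1 (log2 fold change -0.47, SE 0.18, adjusted p = 0.0485), and its adjusted p was above 0.05 on leaving out any of 9 tumors, from 0.0602 to 0.108. *Adamts2* was 1305 ± 318 and 982 ± 406 (-0.46, SE 0.24, adjusted p = 0.135), and it passed without KD replicate 1 (-0.64, adjusted p = 0.0186). Of the remaining 6 ADAMTS genes, 3 passed by adjusted p (50%, against 41.9% of all genes), all lower. *Adamts12*, which cuts cartilage oligomeric matrix protein, had 366, 620 and 813 in CTL tumors and 186, 247 and 611 in knockdown tumors (chr15:11064790-11349231). KD replicate 1 alone lay within the CTL range, and the next knockdown tumor had 296. The log2 fold change was -1.02 (SE 0.28, adjusted p = 0.0102), and -1.25 (SE 0.22, adjusted p = 0.000442) without that tumor. Leaving out any of 7 other tumors (CTL replicates 1, 2 and 6, KD replicates 3, 4, 5 and 6) gave -0.998 to -0.91, short of the threshold in size. *Adamts6* (-0.98, SE 0.22, adjusted p = 0.00243) and *Adamts7* (-0.58, SE 0.14, adjusted p = 0.00438) also fell, and *Adamts6* was called without CTL replicate 3, 4 or 5 or KD replicate 1 or 3 (-1.13 to -1.001). *Adamts10*, *Adamts16* and *Adamts17* did not pass.

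The largest change among the members was that of *Adamtsl3*, an ADAMTS-like matrix glycoprotein. It had 616, 941 and 1037 normalized counts in CTL tumors and 28.0, 90.2 and 335 in knockdown tumors (chr7:82335694-82614450, ENSMUSG00000070469). The 2 groups were far apart, and the knockdown tumors varied widely among themselves, with KD replicate 1 the highest and the next at 168. Its log2 fold change was -3.37 (SE 0.50, adjusted p = 9.77e-05). *Adamtsl4* and *Adamtsl5*, both proteins of the fibrillin microfibrils, went the other way, at 0.46 (SE 0.11, adjusted p = 0.00525) and 0.38 (SE 0.11, adjusted p = 0.00968). *Adamtsl1* and *Adamtsl2* did not pass.

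**Figure D4:**
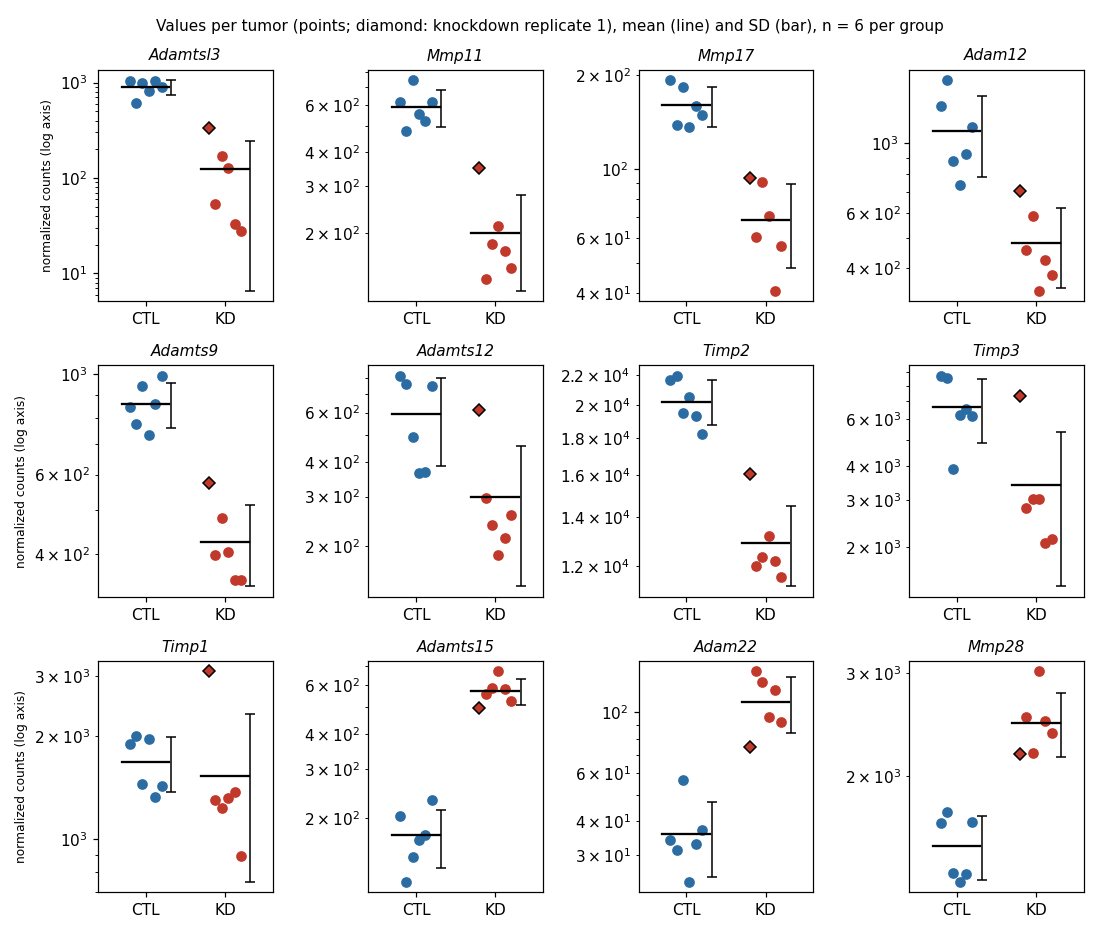
Normalized counts per tumor (y axis, logarithmic) of 12 members, with group mean (line) and SD (bar), n = 6 per group. For *Adamtsl3*, *Mmp11*, *Mmp17*, *Adam12*, *Adamts9*, *Timp2*, *Adamts15*, *Adam22* and *Mmp28* the groups do not overlap. For *Adamts12*, *Timp3* and *Timp1* KD replicate 1 (diamond) lies within or above the CTL range.

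Several of the members that fell are known from fibroblasts, so the fibroblast markers are given beside them. Of 10 such markers 0 were called in either direction, and 3 (*Col1a1*, *Col1a2* and *Thy1*) were lower by adjusted p (30%, against 41.9% of all genes in either direction). By sign alone 9 were lower and 1 higher, with a median log2 fold change of -0.54. Their sum was 172163 to 287927 in CTL tumors and 81127 to 265183 in knockdown tumors. Without KD replicate 1 the knockdown sums reached at most 173987. *Col1a1* was 92521 ± 17333 and 56969 ± 22076 (log2 fold change -0.76, SE 0.22, adjusted p = 0.0108). *Pdgfra*, which marks fibroblasts, was 552 ± 132 and 421 ± 139 (-0.41, adjusted p = 0.122), and no marker of the list was at 0. The epithelial sum ranged from 149757 to 196608 in CTL and from 217523 to 397217 in knockdown tumors. Of 8 endothelial markers 0 were called and 6 were higher by adjusted p (75%, against 41.9% of all genes in either direction). Of 10 skeletal muscle markers 8 were called higher (80%, against 6.20% of all genes). The muscle sums were 2460 to 12949 in CTL and 5423 to 95119 in knockdown tumors. The part of these cell types in the members' differences was not tested.

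In the order of levels per kb of exon, *Timp2* led in both groups. In CTL tumors it was followed by *Adam9* (2738 ± 129), *Mmp14* (2309 ± 211), *Adam10* (1963 ± 71.8) and *Timp1* (1885 ± 344). *Timp2*, at 4687 to 5640, did not overlap with *Adam9*, and each further neighbor in this order overlapped with the one before it. In knockdown tumors *Mmp14* (2459 ± 217) stood before *Adam9* (2377 ± 117), with overlapping ranges, and *Timp2* was 2972 to 4126. *Mmp14* made up 35.8% to 39.2% of the MMP sum in CTL tumors and 29.9% to 43.8% in knockdown tumors, the lowest being KD replicate 1. Within groups, *Adam10* varied least among CTL tumors (SD 0.05 on the log2 scale, and 0.07 among knockdown tumors), while *Adamtsl3* varied most among knockdown tumors (SD 1.40, and 0.29 among CTL tumors).

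**Figure D5:**
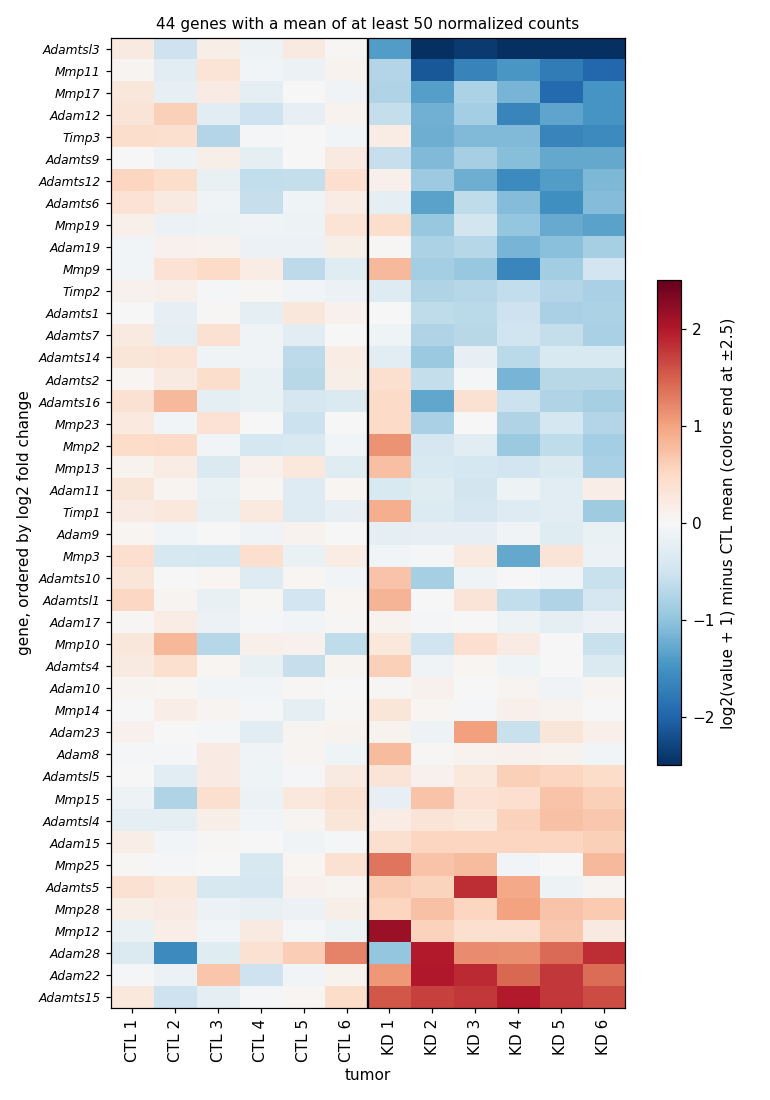
Heat map of the 44 members whose mean reached 50 normalized counts (rows, ordered by log2 fold change) in the 12 tumors (columns), as log2(value + 1) minus the CTL mean, with colors ending at ±2.5. The upper rows are mostly blue in KD 2 to KD 6 and paler or red in KD 1, and the lowest rows, *Adam22* and *Adamts15*, are red in all 6 knockdown tumors.

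Proteins that control these enzymes were read from the same comparison, as a list of 22 regulators. By adjusted p, 7 were higher and 8 lower (68.2% together, against 41.9% of all genes), and 5 were called (22.7%, against 10.2%). *Lcn2*, a lipocalin that binds MMP9, was higher (379 ± 82.0 and 1174 ± 465, log2 fold change 1.56, SE 0.22, adjusted p = 6.70e-05). The 4 called lower were *Pcsk6* (-2.25) and *Pcsk5* (-1.28), proprotein convertases that activate secreted precursors, *Tfpi2* (-1.54), a serine protease inhibitor, and *A2m* (-1.22), which traps proteases of many classes. *Pcsk6* was 2899 ± 435 and 655 ± 336 (SE 0.23, adjusted p = 3.43e-06) without overlap. Of 6 related zinc proteases outside the families, 3 were called (50%, against 10.2% of all genes). *Tll1*, a procollagen C-proteinase, was lower (416 ± 113 and 94.0 ± 22.7, log2 fold change -2.12, SE 0.20, adjusted p = 1.81e-06). *Mep1a*, the alpha subunit of the meprins of intestinal and kidney epithelium, was higher (6.57 ± 2.23 and 95.8 ± 30.9, 3.67, SE 0.29, adjusted p = 4.81e-07). *Mep1b*, the beta subunit, was at or under the floor of 3 reads per tumor in all CTL tumors and 26.4 to 81.4 normalized counts in knockdown tumors, at least 16.3-fold higher.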

How the data were processed

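RNA-seq libraries of 12 frozen tumors, 6 CTL and 6 *Filip1l*-knockdown by the labels, were made at GENEWIZ/Azenta from poly(A) RNA. The kit that the paper names does not mark strand, though the paper itself does not state strandedness. Per the submitters' processing notes, the tools were Trimmomatic 0.36, STAR 2.5.2b with mm10, and featureCounts of Subread 1.5.2 for the counts per gene. The deposited values are counts divided by the DESeq2 size factor of each tumor, a normalized signal not corrected for length. In each tumor they are whole multiples of the value of 1 read (0.865 to 1.49). In 3 tumors that value is within 1% of 1, so no test for counts was run. The number of reads and the floor of 3 reads come from it and cover counting error only.

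Values were compared as log2(value + 1) in limma 3.58.1 (R 4.3.3), using a mean-variance trend and Benjamini-Hochberg adjustment over all 15687 genes, after a filter at a mean of 5 that removed 0 genes. Adjusted p-values are those of this fit. Exact two-sided permutation tests over 924 arrangements, whose smallest p of 0.00216 is 0.01 after adjustment over all genes, gave 0.00649 for *Filip1l*. On simulated data for this comparison over 15687 genes, 200 of 200 changed genes were recovered with 1 false call. The changed genes had a mean of at least 50 and fold changes all above the threshold. Every gene had the same dispersion and no tumor stood apart. The simulation therefore does not cover members near the threshold, with low counts, or with an outlying tumor. Symbols, positions and merged exon lengths came from GENCODE vM21 (GRCm38), where 15661 identifiers (99.8%) were found, and start regions from RefSeq. Plots used matplotlib 3.10.9 (Python 3.11.15).

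Members, role groups and marker lists were chosen with earlier results of these data known. Values are given for called members with a mean of at least 50, all TIMP genes, and *Mmp2*, *Mmp7*, *Mmp9*, *Mmp14*, *Adam10* and *Adam17*, then for members with an adjusted p under 0.05 by highest mean. Other genes are named as called members of the lists, or, chosen after their values were seen, because a tumor left out or a neighbor changed the reading. The labels call the tumors biological replicates. They name no sequencing batch. Replicate numbers did not pair tumors.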

Additional observations from a re-analysis of the deposited data

Results flagged for a closer look

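A gap test for a single value far from its group was run on 38 groups of 6 tumors. These were the CTL and knockdown groups of the called members, the TIMP genes, *Mmp2*, *Mmp7*, *Mmp9*, *Mmp14*, *Adam10* and *Adam17*. Other members were not tested, so the marks are no full list of outlying values. *Mmp12*, for example, was not tested, though KD replicate 1 had 9741 and the next knockdown tumor 3456. Chance flags about 1 in 20 groups if values are normally distributed. The gaps were taken on normalized counts and not on the log2 scale of the fits, which draws high values closer to the rest. The test marked 8 groups, all of them knockdown groups in which KD replicate 1 was high. These values, in normalized counts beside the next lower knockdown tumor, were 348.9 for *Mmp11* (next 212), 7340 for *Timp3* (next 3028), 611 for *Adamts12* (next 296) and 3092 for *Timp1* (next 1368). They were 16074 for *Timp2* (next 13188), 6479 for *Mmp2* (next 2493), 201 for *Mmp7* (next 63.5) and 1828 for *Mmp9* (next 743). The genes are not independent, since all 8 marks come from 1 tumor. That tumor also had the highest macrophage marker sum and the highest fibroblast marker sum of its group, and the part of these cells in the marks was not tested.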

How the results depend on the processing

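Of 9 alternatives that kept all tumors, pseudocount of 0.5, no filter, rescaling to the 75th percentile, limma without a trend and replicate number as a block each kept the same 11 called members. A pseudocount of 8 gave 8 (without *Adam5*, *Adamts12* and *Mmp8*), a filter at a mean of 20 gave 10 (without *Adam5*), and rescaling to the same total gave 12 (with *Adamts6*). Removing chromosome medians gave 8 called members and 5 called lower (without *Adam5*, *Adamts12* and *Adamts9*), and turned *Mmp14* to -0.29. Rescaling to the same total turned *Adam10* to -0.012. Leaving out 1 tumor at a time gave 7 to 13 called members, with 7 without KD replicate 5, where *Adam5*, *Adamts12*, *Adamts9* and *Timp3* fell short. It gave 4 to 9 called lower, with 4 without KD replicate 5 and 5 without CTL replicate 6 or KD replicate 6. Over these sets the log2 fold change of *Mmp10* ran from -0.17 to 0.14 and that of *Mmp3* from -0.26 to 0.063. Deviations of tumors with equal replicate numbers correlated at -0.269 to 0.0990, so no pairing was used. With the replicate block *Adamts14* had an adjusted p of 0.0802 and *Mmp25* of 0.0436. Depth limits the 12 members with a mean under 50 normalized counts.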
